A study of Mus musculus with 15 samples.

Results

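The probes described here are those whose deposited log2 value was at least 1 higher, a doubling or more, in mouse CD4 T cells activated for 24 h than in naive CD4 T cells. They were chosen by these 24 h and naive values alone: the mean of the 2 columns for 24 h was set against the mean of the 2 naive columns, and probes of several numbered groups with their own time courses were left out. Of the 2191 probes with deposited values, 61 reached this difference, 16 of them belonged to the left-out numbers, and 45 remained as members. The array was a custom microRNA design whose files give every probe only as an ID beginning with UCSF033. No table used here pairs an ID with a microRNA, so members appear by ID and no mature sequence or seed can be given for them. The 24 h and naive values chose the members, so every difference between those 2 groups is a description and carries no test.

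MicroRNAs are short RNAs that are cut from hairpin precursors and loaded into Argonaute proteins, which they guide to partly complementary messenger RNAs to lower their stability or translation. When a naive CD4 T cell is triggered through its antigen receptor and the costimulatory receptor CD28, it grows, divides and remodels its gene expression, and its set of microRNAs is known to be rebuilt as well: some, such as miR-155 and members of the miR-17 cluster, are known to accumulate in activated T cells. IL-2 is the growth factor that keeps activated T cells alive after the stimulus is withdrawn.

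All groups were CD4 T cells of C57/B6 mice aged 6 to 8 weeks, taken from spleen and lymph nodes and purified by beads that bind CD4. For activation, antibodies fixed to the plate engaged CD28 and the CD3 chains through which the T cell receptor signals, for 6, 12, 24, 42 or 65 h. Another group was activated for 65 h, taken off the stimulus and rested in medium with IL-2 until day 7, and a further group of such rested cells was restimulated on the same antibodies for 18 h. Naive cells with no treatment were the baseline. Rested cells have 1 array and every other group has 2. Whether paired arrays stem from different mice or cultures is not in the labels, and the p-values therefore reflect array-to-array spread that may be purely technical. A bulk sample cannot tell more cells that hold a microRNA from more of that RNA in each cell.

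The 15 arrays lay on 2 slides, with 1 array of each group on each slide and the rested array on slide 1. On 14 arrays 640 to 950 of 2500 probes were detected above background. The first 42 h array stood apart, with 2146 probes detected and a non-uniformity flag on 49.6% of its spots, and it is left out of the values below unless it is named. Levels are given as log2 of the background-subtracted spot signal relative to the 75th percentile of the same array, so a level of 0 equals that percentile and a difference of 1 is a doubling. Levels of different probes are not comparable with each other. Of the 882 probes that entered the test, all 45 members were among them, and all 45 would have passed the detection filter through a group other than 24 h. Precision is limited throughout by how few arrays each group has.

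By construction the members were higher at 24 h, with value table differences of 1.004 to 2.74 log2 and a median of 1.38. Of the 2191 probes 2.78% reached the threshold before the left-out numbers were removed. Most members lay close to it, 29 of them under 1.5 log2, and 5 reached 2 log2 or more. The scanner signal of the same arrays gave larger differences, 1.12 to 3.88 log2 with a median of 1.86, and all 45 were higher at 24 h on both slides. Among all 882 tested probes 15.3% had a scanner difference of at least 1. Nothing about the members is read from these shares, since the same arrays chose them. The members just inside the threshold were UCSF033_000845 at 1.004 and UCSF033_001161 at 1.006 log2, while UCSF033_000449 at 0.997 and UCSF033_000434 at 0.993 lay just outside it.

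UCSF033_000843 had the largest difference. In order of time its level was -6.12 and -6.94 on the naive arrays, -5.89 and -4.98 at 6 h, -4.18 and -2.91 at 12 h, -2.54 and -2.75 at 24 h, -0.88 on the 42 h array, and -1.41 and -0.69 at 65 h. It was -3.93 on the rested array and -2.82 and -1.21 on the restimulated arrays. The pairs did not overlap from 1 time to the next up to 24 h, and the rested array lay below both arrays of 24 h and of 65 h. UCSF033_000420 had the next largest difference, with levels of -1.87 and -2.69 in naive cells, -1.33 and -1.60 at 6 h, -0.96 and -0.22 at 12 h, 0.80 and 0.63 at 24 h, 2.07 at 42 h, and 1.84 and 1.66 at 65 h. Its rested array had -0.0015 and its restimulated arrays 0.12 and 1.20, so the restimulated pair straddled the 24 h pair.

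The members fell into 3 shapes by the group in which their mean level was highest. This sorting was chosen after the values were seen, and is a description. In 27 members the highest mean was at 42 h or 65 h, in 7 at 24 h, and in 11 in rested or restimulated cells. The value table, which was scaled differently, put all 45 in the same shape. The value table and the scanner signal were read from the same arrays.

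In the 27 members sorted by a maximum at 42 h or 65 h, the median difference from naive was 0.36 log2 after 6 h, 0.92 by 12 h and 1.77 by 24 h. It was largest with 2.65 on the 42 h array and was 2.36 after 65 h, when single members spanned 1.34 to 5.48. In rested cells it was 1.18 and in restimulated cells 1.65. All tested probes had 0.59 at 65 h, 0.25 in rested and 0.37 in restimulated cells. The value table gave the 27 medians of 1.69 at 65 h, 0.86 in rested and 0.89 in restimulated cells. Restimulated cells lay below 65 h cells in 26 of the 27, and in 388 of all 882 tested probes. Both groups took part in the sorting, which favours that direction. They include all 14 members numbered from UCSF033_000411 to UCSF033_000447, the 3 from UCSF033_000647 to UCSF033_000649, and UCSF033_000843 with UCSF033_000845. Most of them were detected from the start, 26 of 27 on both naive arrays. Without the only usable 42 h array 25 of the 27 still had their maximum at 65 h.

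Within this shape UCSF033_002085 was near its naive level at 6 h and 12 h. Its level was 0.62 and 0.49 in naive cells, 0.92 and -0.08 at 6 h, and 0.13 and 0.05 at 12 h, and it then stood at 2.52 and 2.58 at 24 h, 4.62 at 42 h, and 3.52 and 4.35 at 65 h. The 6 h and 12 h arrays overlapped each other, while all arrays from 24 h on were above every earlier one. It was 2.06 in rested cells and 2.97 and 3.61 after restimulation. UCSF033_001749 was the other member below naive at 6 h, by -1.03 log2, and it was named after its value was seen.

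The 7 members with a maximum at 24 h carry the IDs UCSF033_000522 to UCSF033_000527 and UCSF033_000591. At 6 h their median was 0.34 log2 above naive and none had reached 1, at 12 h it was 1.94 and at 24 h 3.05. It then stood lower, with 2.53 on the 42 h array and 2.22 in 65 h cells, and was 0.17 in rested cells and 1.95 after restimulation. Floored values enter these medians: UCSF033_000525, UCSF033_000526 and UCSF033_000527 were at the floor of -7.42 on both naive arrays and on the rested array, so their differences there have no size. UCSF033_000522 and UCSF033_000523, which were above the floor on every array, were 0.87 and 0.84 log2 above naive in rested cells. In the value table the medians of the 7 above naive were 1.77 at 24 h, 0.90 in the second 42 h column and 0.71 at 65 h. They were -0.09 in rested cells and 0.60 after restimulation, when 0 of the 7 reached 1. All tested probes had scanner medians of 0.59 at 65 h and 0.37 after restimulation. Both restimulated arrays were above the rested array in 7 of 7, where 32.1% of all tested probes were. UCSF033_000526 and UCSF033_000527 were detected on only 1 restimulated array each. No difference between restimulated and rested cells passed the test given below. For UCSF033_000522, chosen after the values were seen, the levels were -4.23 and -5.09 in naive cells, -3.89 and -4.74 at 6 h, -3.25 and -2.21 at 12 h, -1.18 and -2.03 at 24 h and -1.74 at 42 h. They were -3.38 and -1.49 at 65 h, -3.79 in rested cells, and -2.80 and -2.59 after restimulation. The 65 h arrays differed by 1.89 log2 for this probe and spanned the 42 h value, so its lower mean at 65 h than at 24 h did not exceed the spread of that pair.

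All 7 of these members were lower on the first than on the second array at 65 h, by a median of -1.24 log2 in the scanner signal and -0.26 in the value table, and at 12 h by -1.81 and -1.18. The 65 h group mean lay above the 12 h mean in 5 of the 7 in the scanner signal and in 0 of 7 in the value table. Without the first 65 h array, 5 of the 7 kept their maximum at 24 h. UCSF033_000526 and UCSF033_000527 were not well above background on either naive array, where both stood at the floor of -7.42, and had mean levels of -5.41 and -5.33 at 24 h. Their value table differences were 1.34 and 1.25 log2.

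The 11 members highest in rested or restimulated cells had larger median differences from naive at 6 h and 12 h than the 27 late members. The naive arrays chose the members, so this is a description. For these 11 the array medians were -5.09 and -3.68 in naive cells and -3.35 and -3.30 at 6 h. Their median difference from naive was 1.11 log2 at 6 h and 2.10 at 12 h, against 0.36 and 0.92 for the 27 probes with a late maximum and -0.06 and -0.07 for all tested probes. By 24 h it was 1.74, and the 42 h array gave 1.09. Cells at 65 h had 2.04, rested cells 2.84 with single members from 1.75 to 4.19, and restimulated cells 2.75. All tested probes had 0.59, 0.25 and 0.37 in these groups. In the value table the 11 had 1.54 at 12 h, 0.998 at 65 h, 2.04 in rested and 1.87 in restimulated cells. There 0 of the 11 had a higher mean at 65 h than at 12 h, against 4 in the scanner signal. In the scanner signal all 11 were lower at 42 h than at 12 h, by 0.45 to 1.87 log2. The dip at 42 h rests on 1 array in the scanner files. In the value table, where both 42 h columns can be read, the medians of these 11 above naive were 0.19 for the first and 0.29 for the second.

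Replicate arrays of restimulated cells differed more for this shape than for the other two. The first restimulated array, on slide 2, exceeded the second by a median of 2.17 log2 over the 11 probes and by 2.11 in the value table, while all tested probes had a median of -0.05. That array also had the most probes detected of the 14, 950 against 640 on its partner; whether this has a part in the difference was not tested. With the first restimulated array left out, restimulated cells were 1.79 log2 above naive over these probes and 10 of the 11 kept their shape, and with the second left out the difference was 3.84. On slide 1 alone 6 of the 11 kept the shape and on slide 2 alone all 11 did. The naive arrays differed by -0.57 for the 11, which also touches each of their differences from naive.

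Both probes of this shape given in full were chosen after the values were seen. The level of UCSF033_001882 was 4.15 and 4.08 in naive cells, 5.99 and 5.24 at 6 h, 7.18 and 5.51 at 12 h, 6.55 and 5.45 at 24 h, 5.89 at 42 h and 5.33 and 6.41 at 65 h. Rested cells had 6.93 and restimulated cells 6.53 and 6.63. Every array from 6 h on lay above both naive arrays by more than 1 log2, while the 12 h, 24 h and 65 h pairs overlapped. In the value table the gap was smaller, with a difference from naive of 0.27 log2 in the second 42 h column and 0.76 at 65 h. UCSF033_001594 was at the floor of -7.42 on both naive arrays, at -5.74 and -6.18 after 6 h, -4.49 and -5.44 after 12 h, -4.83 and -5.60 after 24 h, -6.83 on the 42 h array, and -5.35 and -4.43 after 65 h. It was -3.23 in rested cells and -2.32 and -5.20 after restimulation.

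Of the 45 members 26 had another member at an adjacent number. No table used here says which neighbours share a target, so members cannot be taken as independent measurements. Neighbours could also differ. UCSF033_000414, whose number falls inside the first run, was 0.94 log2 above naive at 24 h in the value table and UCSF033_000418 was 0.13, and UCSF033_000844 had 0.43 between members at 2.74 and 1.004. UCSF033_001748 and UCSF033_001749 had different shapes, as did UCSF033_002147 and UCSF033_002148. Each member had 6 or 7 spots on the array. Outside the members and the left-out numbers, the tested probes with the profile most like the median member were UCSF033_001162 (Pearson r = 0.980 over the 14 arrays, as a description) and UCSF033_000434 (r = 0.963). Their value table differences at 24 h were 0.868 and 0.993 log2, short of the threshold, and their scanner differences were 1.93 and 1.13. UCSF033_001162 is next in number to the member UCSF033_001161, and the number of UCSF033_000434 falls inside the first run.

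Across arrays the median level of the 45 members was -3.55 and -3.53 in naive cells, -2.40 and -2.88 at 6 h, -1.87 and -2.21 at 12 h and -1.18 and -1.50 at 24 h. It was -1.12 at 42 h, -0.85 and -1.33 at 65 h, -1.31 in rested cells and -0.50 and -1.21 after restimulation. The pairs did not overlap between naive, 6 h, 12 h and 24 h, while the 24 h, 65 h and restimulated pairs overlapped each other. The median of all tested probes stayed between -4.57 and -4.07 throughout. Among the 27 late members the array medians ran from -1.96 on a naive array to 1.48 on the 42 h array, and among the 7 with a maximum at 24 h they ran from the floor of -7.42 on a naive array to -4.11 at 24 h. Among the other 11 they ran from -5.09 on a naive array to 0.16 on the first restimulated array.

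Tests were confined to comparisons in which neither the 24 h nor the naive group was one of the sides. The arrays of those 2 groups still entered the fit, and so its spread, scaling and detection filter. With those arrays left out of the fit, 22 members and 193 of 838 probes were called for 65 h against 6 h. For cells at 65 h against cells at 6 h, 23 of the 45 members rose and 0 fell with limma at an adjusted p of at most 0.05, where 17.8% of all 882 tested probes rose, 11.1% fell and 28.9% passed in either direction. The 23 are 51.1% of the members. All 45 had a positive difference, with a median of 1.76 log2 and a range of 0.25 to 4.38, and the median of all tested probes was 0.48. Both 65 h arrays lay above both 6 h arrays in 42 of 45 members, where 44.6% of all tested probes did, and below both in 0, where 21.5% did. On slide 1 the members' median was 1.68 and on slide 2 1.69, with all 45 positive on each, and all tested probes had 0.51 and 0.40. The fit with slide as a block called 30 members, all higher, and 412 of the 882 probes in either direction.

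UCSF033_000843 rose 20.9-fold at 65 h over 6 h. The log2 difference was 4.38 with an SE of 0.65 from 2 arrays a group (adjusted p = 0.00192 in limma), and the slides gave 5.20 and 3.57. UCSF033_002085 rose 11.4-fold. Its log2 difference was 3.52 with an SE of 0.40, also from 2 arrays a group (adjusted p = 0.000830 in limma), and the slides gave 3.43 and 3.60. Both kept the call under all 25 alternatives, with log2 differences of 3.26 to 4.84 for UCSF033_000843 and 2.88 to 4.01 for UCSF033_002085. In the value table the differences were 3.30 and 3.28. All 23 calls belonged to the 27 members with a late maximum, a shape that was sorted with the 65 h arrays and so favours them. The 7 members with a maximum at 24 h had a median of 1.89 and the 11 highest in rested or restimulated cells one of 0.87, and 0 of either passed. The count depended on the scaling and the arrays in the fit: it was 14 with the percentile taken over all probes, where 216 of 882 probes were called and the members' median was 1.13 against -0.07 for all tested probes, and 9 with all 15 arrays in the fit, where 85 of 911 were called. In the value table it was 22 where 173 of 693 probes were called, with a members' median of 1.02 and 43 of 45 positive. There the 7 with a maximum at 24 h had a median of 0.57. The 11 highest in rested or restimulated cells had 0.16 there, with 2 of them negative.

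For 12 h against 6 h limma called 0 members and 0 of the 882 probes (0%), with 9 members and 24 of all tested probes at an unadjusted p under 0.05. Without a call, 43 of 45 members were higher at 12 h, as were 438 of the 882 tested probes. The members' median difference was 0.56 log2 against 0 for all tested probes. In 28 of 45 both 12 h arrays lay above both 6 h arrays, which 14.1% of all tested probes did. The reverse held in 0 members and in 8.84% of all tested probes. The members' median was 0.41 on slide 1, where 35 of 45 were positive, and 0.87 on slide 2, where 44 were. Over all members the 12 h arrays differed by a median absolute 0.73 log2, more than the step of 0.56. The 7 probes with a maximum at 24 h had differences of 1.53 to 1.65 log2. Their 12 h arrays differed by a median of 1.81 log2, more than that step.

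For rested day 7 cells against 65 h cells limma called 0 members in either direction, while 0.68% of all tested probes passed, 0.454% lower and 0.227% higher. Without a call, 36 of 45 members were lower in rested cells and 9 higher, with a median of -1.25 log2 against -0.08 for all tested probes, and 23 had an unadjusted p under 0.05. The rested array lay below both 65 h arrays in 34 of 45 members, where 34.9% of all tested probes did, and above both in 9, where 27.7% did. On slide 1, the only slide with a rested array, the members' median was -1.12. All 27 members with a late maximum and all 7 with a maximum at 24 h were lower in rested cells, by medians of -1.31 and -1.42, and 9 of the other 11 were higher, with a median of 0.93; the 65 h and rested arrays took part in that sorting. With slide as a block UCSF033_001161 had a difference of -1.70 (SE 0.32), for which limma gave an adjusted p of 0.0280, and UCSF033_002085 had -2.09 (SE 0.37) with 0.0238 as its adjusted p. That fit called 49 of the 882 probes. From the value table limma called UCSF033_002085 again, at -1.95 (SE 0.36), and UCSF033_000430, at -1.78 (SE 0.36), both with an adjusted p of 0.0399, among 23 of 693 probes called. The fit gives the lone rested array the spread of the paired groups, and UCSF033_001161 and UCSF033_000430 are named here after their values in this comparison were seen.

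Restimulated cells set against 65 h cells gave 1 member that fell and 0 that rose in limma, where 1.47% of all tested probes fell, 0.113% rose and 1.59% passed in either direction. UCSF033_000447 had -5.12 and -4.74 on the restimulated arrays, against -2.92 and -3.40 on the 65 h arrays, and the difference of -1.77 log2 had an SE of 0.30 (adjusted p = 0.0245 in limma). On slide 1 it was -1.34 and on slide 2 -2.20. Its naive arrays had -5.29 and -5.82, so restimulated cells were 0.62 log2 above naive where 65 h cells were 2.40 above. The call was kept under 5 of 25 alternatives and lost under 20, with the same sign in all. With slide as a block UCSF033_001189, named after its value was seen, passed as well, at -1.79 log2 with an SE of 0.31 (adjusted p = 0.0302 in limma), in a fit that called 36 of the 882 probes. Over all members the median was -0.58 log2, with 33 of 45 lower, against 0.02 for all tested probes. Both restimulated arrays lay below both 65 h arrays in 20 members and above them in 1, where 15.8% and 14.7% of all tested probes did. Only 4 of 45 were higher on slide 1 and 19 on slide 2. The 11 members of the third shape were higher in restimulated cells by a median of 0.84, but by -0.10 without the first restimulated array and by 1.72 without the second. The restimulated and 65 h arrays took part in sorting that shape, which favours a higher restimulated level.

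Restimulated cells set against rested cells gave 0 calls among the members and among all tested probes (0%) in limma, with 6 members and 78 of all tested probes at an unadjusted p under 0.05. The members' median was 0.49 log2 against 0.06, and 36 of 45 were higher after restimulation. In 25 members both restimulated arrays lay above the rested array, where 32.1% of all tested probes did, and in 4 both lay below it, where 24.6% did. On slide 1 alone the members' median was 0.88. The 7 probes with a maximum at 24 h had a median of 1.097, the 27 with a late maximum 0.49 and the other 11 0.04.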

How the data were processed

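Total RNA was labelled with Cy3 and hybridised to single-colour Agilent arrays, per the labels. The deposited scanner files hold the spot intensity after background and spatial trend subtraction, for which the file headers name Feature Extraction 10.1.1.1 and the submitters' processing notes 10.6. Column medians of the deposited log2 table were 4.38 to 4.41, and the sources used here do not state how the authors scaled and centred it. Its column for the first 42 h array correlated with that of the second at 0.990, while the scanner files of the 2 arrays correlated at 0.610.

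The members, shapes and settings were chosen with earlier results of these data known. Spots of control probes, and those carrying a non-uniformity or population outlier flag, were dropped; 0 spots were saturated. Signals were averaged per probe, divided by the array's 75th percentile over 571 probes that every array of the 14 detected, floored at 0.583% of it and taken to log2. Detection required over 50% of the spots to be well above background. Testing required detection on both arrays of at least 1 group with 2 arrays in the fit, so the rested and 42 h arrays could not qualify a probe. The model was a group mean per probe over 14 arrays, fitted by limma 3.58.1 (R 4.3.3) with 6 residual degrees of freedom, and p-values were adjusted over 882 probes by Benjamini-Hochberg at 0.05. Because no table names the probes, IDs were named as the largest differences, the nearest to the threshold, the 2 other probes with the most similar profile and up to 2 called members per direction and comparison; others are marked as named after their values were seen. On simulated data for 65 h against 6 h with 200 changed probes among 882, 20% of changes of 1 log2 and 62% of those of 2 log2 were recovered, and 5.75% of calls were false. The simulated noise was independent for each probe and array, without a slide effect or a shift of unchanged probes. The share of false calls in the measured data was therefore not tested. Slides were read from the file headers; slide differences of the 6 paired groups correlated at 0.0845 to 0.825, 14 of 15 pairs above 0.1. The planned lists of microRNAs and of cell type markers could not be matched to probes, so the labelled cell type was not checked here. Other settings for scaling, filtering, the floor, the variance model, a slide block and the choice of arrays were tried.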

Additional observations from a re-analysis of the deposited data

Results flagged for a closer look

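The 42 h arrays take part in none of the tested comparisons. In the value table both had a higher members' median than the naive arrays. The naive arrays chose the members, so this is a description. In the value table the members' median level was 8.65 on the first 42 h array and 8.96 on the second, against 7.22 and 7.48 on the naive arrays. The same first array stands apart in its scanner file, where the members' median above naive was 1.30 log2 against 2.52 for the second array. In the value table these medians were 1.63 and 1.61, and the second array's median difference from naive over 693 tested probes was -0.10. For the 11 members highest in rested or restimulated cells the first array had 2.64 log2 above naive in the scanner file and 0.19 in the value table.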

How the results depend on the processing

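The 5 counts of called members were recomputed under 25 alternatives each. The counts for 12 h against 6 h and for restimulated against rested cells were 0 under all of them. For 65 h against 6 h the count of 23 was 9 with all 15 arrays and 14 with the percentile over all probes, and 18 to 27 when single arrays were left out. For rested cells against 65 h the count of 0 was 2 with slide as a replicate block, in the value table, and in the value table with that block, and 0 to 1 when single arrays were left out, with 1 lower member without either 12 h array or either restimulated array. For restimulated cells against 65 h the count of 1 was 2 with the slide block, with quantile normalization and in the value table with the block. It was 0 with all 15 arrays with or without the block, the percentile over all probes, normexp, the value table, no filter, the lowered floor, an intensity trend and the fit without the naive and 24 h arrays, and 0 to 2 when single arrays were left out. It was 2 without either 12 h array (both lower) or the second restimulated array (both higher), and 0 when the array removed was the first restimulated one or any naive, 6 h, 24 h or 65 h array. The members' median above naive was smaller in the value table, with 0.89 after 12 h, 1.38 after 24 h, 1.61 for 42 h, 1.26 for 65 h, 0.89 in rested and 0.96 in restimulated cells, against 1.18, 1.86, 2.52, 2.22, 1.25 and 1.95 as reported. With the percentile over all probes it was 1.85 at 42 h, 1.53 at 65 h, 0.75 in rested and 1.42 in restimulated cells. The cause of these shifts was not tested. The block on slide and all 15 arrays, the block in the value table and the shapes by array were chosen after seeing the data. The simulation covers 65 h against 6 h only, so recovery in the other comparisons was not tested.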
